A study of Mus musculus with 6 samples.

Results

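Sh3pxd2a encodes Tks5, the scaffold protein of podosomes, and its locus on mouse chromosome 19 carried 15 genotype-specific peaks of open chromatin, 12 in the list of Mir137 conditional knockout microglia and 3 in the list of their controls. They were chosen by position from all 12105 peaks, 8615 in the cKO and 3490 in the cWT list. A peak belonged to the locus if the protein-coding gene end nearest to its midpoint was an end of Sh3pxd2a, within 100 kb, or if its midpoint lay inside the gene (RefSeq, GRCm38.p6; gene 14218, chr19:47260174-47464612, 204 kb). The gene was singled out because, by nearest end within 100 kb, it had more cKO-specific peaks than any other coding gene. That count can miss peaks deep inside longer genes. The counts at Sh3pxd2a describe the choice and were not tested. Of these 15 peaks, 14 had their midpoint inside the gene, and the other lay 170 bp outside it.

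The peaks come from ATAC-seq, in which the Tn5 transposase cuts and tags accessible DNA, of about 50000 sorted brain microglia per genotype from C57BL/6J mice aged 8 weeks. The knockout group (cKO) was Mir137loxP/loxP;Tmem119-CreERT2 and the control group (cWT) Mir137+/+;Tmem119-CreERT2, with 3 libraries each. Both groups carried the tamoxifen-inducible recombinase driven by Tmem119, a gene of microglia, and were given tamoxifen on 7 days in a row from an age of 7 to 8 weeks. It is stated that n = 4 mice were used, without tying animals to libraries. Each list gives 1 set of peaks for a genotype and no value per library, so the spread between replicates, the sequencing depth and the extent of the deletion could not be read from them. The values below are therefore descriptions of 2 lists, with no test between genotypes. Because the lists hold only genotype-specific peaks, they cannot check the labelled cell type, and marker counts are given as description. Of homeostatic microglia genes, 13 of 20 had a cKO-specific peak and 6 of 20 a cWT-specific one. Over all coding genes the shares were 22.5% in cKO and 11.4% in cWT. Cx3cr1, Csf1r, Aif1, Olfml3, Tyrobp and C1qa had 0 peaks in both lists, which hold only the specific peaks and so do not show whether these genes were open. Markers of other cells also had peaks, among them 6 of 10 vascular genes in cKO and 2 of 10 in cWT, 5 of 10 astrocyte genes in cKO and 2 of 10 in cWT, and 4 of 10 genes of other macrophages and monocytes in cKO and 3 of 10 in cWT. Neurons and the oligodendrocyte lineage each had 3 of 10 in cKO and 2 of 10 in cWT, and lymphocytes 2 of 9 in cKO and 1 of 9 in cWT. The part of other cells in the peaks at Sh3pxd2a was not tested.

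Podosomes are actin-rich adhesions of macrophages and other motile cells, with which they hold on to and degrade the surrounding matrix. Tks5 is a substrate of the kinase Src. It binds phosphoinositides at the membrane through its PX domain, and its SH3 domains recruit the actin nucleation machinery and matrix-cutting proteases of the ADAM family. A shorter form, which lacks the PX domain and is made from a start site inside the gene, is known in mouse. Sh3pxd2a is read from the reverse strand, so that its end at the higher coordinate is the start of the long form. That is background knowledge, as the gene table used here gives no strand.

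One microRNA gene, Mir6995, lies inside Sh3pxd2a (chr19:47273519-47273589, reverse strand). Its mature sequences are shown beside the main arm of miR-137, with the seed, bases 2 to 8, in capitals (RefSeq, GRCm38.p6). They are given because Mir137 is the gene targeted in cKO microglia and Mir6995 is the only microRNA gene in the stretch described here.
mmu-miR-137-3p: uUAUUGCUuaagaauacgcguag
mmu-miR-6995-5p: cUGGGAGUagaagggggaaacca
mmu-miR-6995-3p: uGUGUCCCcuuccucucacag
The 3 seeds differ. Mir6995 itself was under no peak of either list. The nearest cKO-specific peak began 7248 bp to its higher-coordinate side, and the nearest cWT-specific peak ended 8939 bp to its other side.

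The cKO-specific peaks reached from near one end of the gene to near the other, but not evenly. Counted from the start of the long form, 4 lay in the first 25% of the span, 3 between 25% and 50%, 3 between 50% and 75% and 2 in the last 25%. The 3 between 50% and 75% lay within 3.6 kb, after 70.3 kb with no cKO-specific peak, and adjoining peaks are counted singly here. In the cWT list, 2 peaks lay in the last 25% and 0 in the rest of the span, and the other sat across the start.

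**Figure D1:**
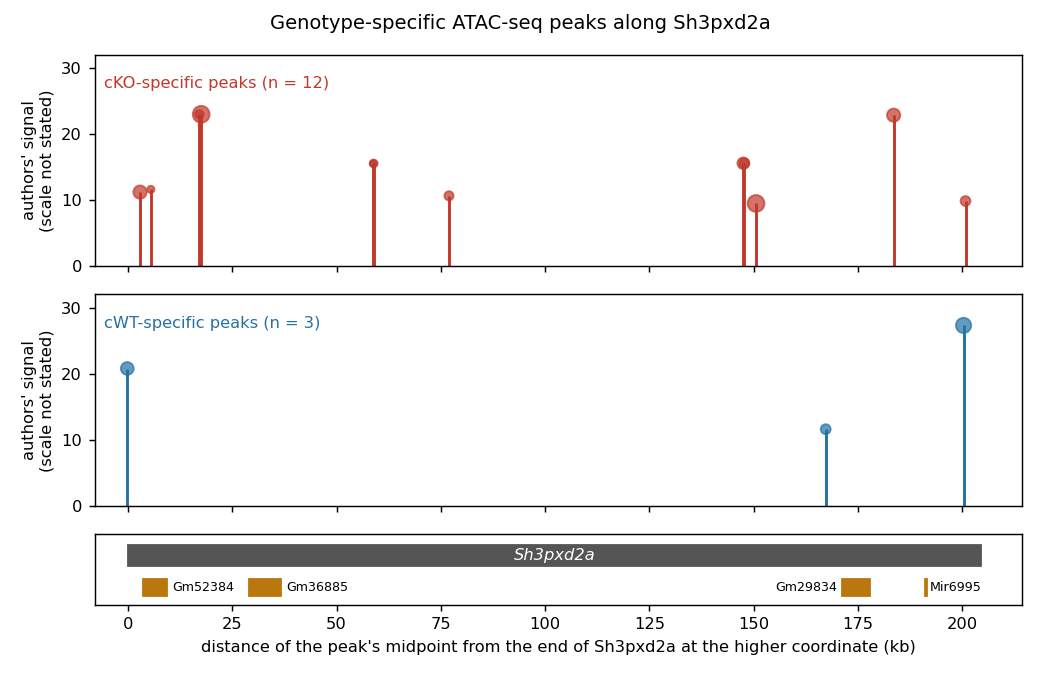
Specific peaks along Sh3pxd2a, with cKO above cWT. The x axis gives the distance in kb of each peak's midpoint from the gene end at the higher coordinate, the height of a line the authors' signal, whose scale is not stated, and the area of a point the peak's width; bars below show the gene and the noncoding genes inside it. The 12 cKO-specific peaks lie 2891 to 200788 bp into the gene, while the 3 cWT-specific peaks lie at its 2 ends and 167270 bp in.

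The part next to the start of the long form held peaks of both genotypes. The cKO-specific peak closest to it, chr19:47461503-47461939, had its midpoint 2891 bp inside the gene, a width of 437 bp, a signal of 11.2 and a p-value of 0.732. The next, chr19:47459062-47459192, lay 5485 bp inside, was 131 bp wide and had a signal of 11.6 and a p-value of 0.829. Both were weak for their list, in which 20.4% and 22.7% of peaks had a signal as low or lower. The cWT-specific peak chr19:47464578-47464986 covered the start itself. It was 409 bp wide, with a signal of 20.8 and a p-value of 0.554, and 82.2% of the cWT list had a signal as low or lower. It was separated by 2638 bp from the closest cKO-specific peak. Signal and p-value are the authors' own values for a peak. The sources do not say what the p-value tests, so values of the 2 lists are set side by side without a comparison.

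The strongest cKO-specific peaks of the locus lay at 17 kb into the gene and near its far end. At 17550 bp from the start, chr19:47446711-47447413 was 703 bp wide, with a signal of 23.0 and a p-value of 0.306, the lowest at the locus in either list. Only 4.56% of the cKO list had a p-value as low or lower. It adjoined chr19:47447414-47447596, which was 183 bp wide and had the same signal of 23.0 with a p-value of 0.540. The third of these peaks, chr19:47280838-47281271, lay 183558 bp in, was 434 bp wide and had a signal of 22.8 and a p-value of 0.534. These 3 peaks stood at the 81.1% to 81.5% point of their list by signal, and the other 9 were at or below its 45.0% point.

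Between these lay weaker cKO-specific peaks. A pair of adjoining ones was found about 58.8 kb from the start, chr19:47405618-47405770 and chr19:47405771-47405889, both with a signal of 15.6, at p-values of 0.873 and 0.934. Their widths, 153 and 119 bp, were among the smallest of the list, in which 0.963% and 0.0813% of peaks were as narrow or narrower. A single peak of 208 bp, chr19:47387554-47387761, lay 76955 bp from the start and was the member farthest from an end of the gene. Its signal was 10.7 and its p-value 0.952, the highest at the locus. After 70.3 kb with no cKO-specific peak, a group of 3 followed within 3.6 kb. It held the adjoining chr19:47316707-47316958 and chr19:47316959-47317289, both with a signal of 15.6, at p-values of 0.715 and 0.837, and chr19:47313691-47314392. The last was broad and low: its width of 702 bp was at the 96.6% point of the list and its signal of 9.52 at the 10.4% point, with a p-value of 0.870.

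At the far end of the gene a peak of each genotype lay side by side. The cKO-specific peak chr19:47263704-47263944 was 241 bp wide, with a signal of 9.88 and a p-value of 0.948. The cWT-specific peak chr19:47264004-47264579 began 59 bp further on, was 576 bp wide and had a signal of 27.3 and a p-value of 0.473. It was the strongest cWT-specific peak of the locus and stood high in its own list, at the 93.6% point by signal and the 93.7% point by width. Its cKO neighbour stood at the 12.5% and 29.5% points of the cKO list. A peak of the other list within 100 bp was found for 3.45% of all cKO-specific and 8.45% of all cWT-specific peaks, and at Sh3pxd2a for 1 of 12 cKO-specific and 1 of 3 cWT-specific peaks. The remaining cWT-specific peak, chr19:47297220-47297464, lay 167270 bp from the start, was 245 bp wide and had a signal of 11.6 and a p-value of 0.921. Its closest cKO-specific peak was 15948 bp away.

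**Figure D2:**
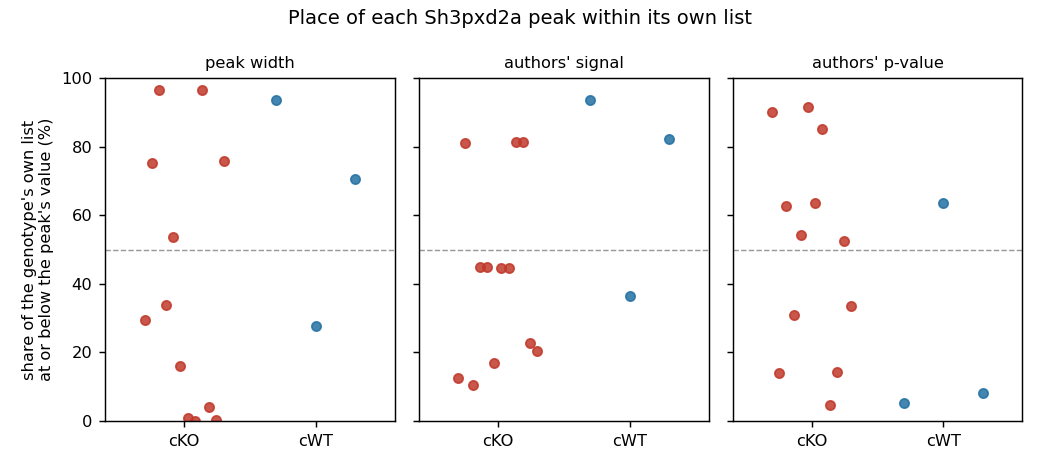
Place of each Sh3pxd2a peak in its own genotype's list. Each point is a peak, in order along the chromosome, and the y axis gives the share of the list, in percent, with the same or a lower width, authors' signal or authors' p-value; the dashed line is the list's midpoint. By signal, 3 of 12 cKO-specific and 2 of 3 cWT-specific peaks lie above the midpoint.

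The medians of signal and p-value of the cKO-specific peaks of Sh3pxd2a were near those of their list, with a smaller median width, when each listed peak was counted. Most single peaks were not near the middle by signal, and the median signal was lower once adjoining peaks were joined, as given below. The median width of the cKO-specific peaks was 246.5 bp, against 314 bp over the cKO list, the median signal was 15.6 against 16.5, and the median p-value 0.833 against 0.818. A p-value up to 0.5 was held by 1 of 12, where 12.1% of the cKO list has one. In the cWT list it was 1 of 3, with a background of 6.16%. The authors named 2.82% of the cKO and 1.38% of the cWT list primary, and at the locus 0 of 12 cKO-specific and 0 of 3 cWT-specific peaks. A score at or above the median of the list was found for 5 of 12 cKO-specific peaks (background 50.3%) and for 2 of 3 cWT-specific ones (51.3%). The adjusted p-value was 0.979 for each of the 12 cKO-specific peaks and 0.981 for each of the 3 cWT-specific ones. No peak of either list (0.0%) had one under 0.05.

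Of the 12 cKO-specific peaks, 6 formed 3 adjoining pairs, in which a peak begins on the base after the last one ends. In the cKO list as a whole 5.73% of peaks adjoined another, and in the cWT list 2.89%, with 0 of 3 at Sh3pxd2a. The gene was chosen by its count of single cKO-specific peaks, to which adjoining pairs add, so its cKO share is not independent of that choice. All 248 adjoining pairs of the cKO list and all 51 of the cWT list had the same signal on both sides and consecutive numbers in the peaks' names. Taken as 1 region each, the pairs leave 9 cKO-specific regions and 3 cWT-specific regions at the locus. The joined regions were 886 bp wide at 17.5 kb from the start, 272 bp at 58.9 kb and 583 bp at 148 kb, and the median width over the 9 regions was 434 bp, against 324 bp over the cKO list joined in the same way. The median signal of the 9 regions was 11.6, against 16.3 over the joined list and below that list's lower quartile of 11.96, and the median p-value was 0.829 against 0.816. By regions, Sh3pxd2a no longer led: Pip4k2a and Rad51b had 10 cKO-specific regions each, and 5 coding genes, Sh3pxd2a included, had 9 or more.

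The numbers in the peaks' names rose at every step along each chromosome in both lists, and so place the peaks that were numbered but not listed as specific. In the cKO list the locus ran from number 16524 to 16542, which leaves 7 numbered peaks that are not listed. The first 5 peaks from the far end were consecutive, 16524 to 16528, over 53.6 kb. The unlisted ones fell in the intervals nearer the start of the long form: 3 within the 70.3 kb stretch with no listed peak, 1 and 2 in the next 2 wide intervals of 17.9 and 40.8 kb, and 1 in the 11.5 kb interval after the strongest pair. In the cWT list the locus ran from 14166 to 14177, and 9 of these 12 numbered peaks are not listed. Of these, 8 lay in the 167 kb between the 2 cWT-specific peaks at 167270 bp and at the start, so by this numbering further peaks inside the gene were called in cWT without being listed. Over the whole numbering, up to the last listed number, 25.8% of cKO and 12.1% of cWT numbers are listed as specific. Most numbers of both lists are therefore unlisted, and unlisted peaks are not particular to this locus. Both ends of the 2 runs at the locus are specific by construction. Between these ends, 10 of 17 cKO numbers and 1 of 10 cWT numbers are listed. The cKO share draws on the choice of the gene by its count and was not tested. The unlisted peaks were not analysed here.

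Listed peaks continued into the neighbouring gene on the lower-coordinate side of Sh3pxd2a, but not on the other side. The gene before it in coordinate order, Neurl1a, which encodes a neuralized-type ubiquitin ligase, had 3 cKO-specific and 0 cWT-specific peaks, all 3 inside the gene. The one nearest to Sh3pxd2a, chr19:47224783-47225130, ended 35044 bp from it, had a p-value of 0.216 and a signal of 21.4 and was named primary. It is the closest peak that the rule left out. On the other side Stn1, a gene of telomere maintenance, and Slk, a kinase gene, had 0 peaks in both lists, and the next listed peaks followed 421 kb after the last cKO-specific and 331 kb after the last cWT-specific peak of the locus. Long noncoding RNA genes, 3 in all, lie inside Sh3pxd2a, and 1 cKO-specific peak, the one 5485 bp from the start, had its midpoint in one of them, Gm52384. The upstream sequences of Gm52384, Gm36885 and Gm29834 (250 bases before to 50 after the annotated start) were under no listed peak. The nearest cKO-specific peaks were 3808, 18727 and 5193 bp from them, and the nearest cWT-specific peaks 9324, 36594 and 10455 bp. If each peak is given to the nearest end of any annotated gene, 4 cKO-specific peaks go to Gm52384, 3 to Gm36885 and 4 to Gm29834, and Sh3pxd2a keeps 1 cKO-specific and 2 cWT-specific peaks.

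Among all 21887 coding genes, 22.5% had at least 1 cKO-specific peak and 11.4% at least 1 cWT-specific peak, mostly a single one. At least 3 were found at 3.1% of genes in cKO and 0.489% in cWT. Sh3pxd2a had 12 in cKO, the count it was chosen for, and 3 in cWT. Its place among genes by cKO count, here and below, draws on that choice and was not tested. Genes of like length had peaks more often: of 739 coding genes of 150 to 250 kb, 320 (43.3%) had a cKO-specific peak, 102 had 3 or more, and the next highest count after Sh3pxd2a was 10, at Pip4k2a. In the cWT list 202 (27.3%) of these genes had a peak and 24 had 3 or more. Set against its length, Sh3pxd2a had 5.87 cKO-specific peaks per 100 kb, the fifth highest of the 2429 coding genes of 100 kb or more, after Irf2, Pip4k2a, Pag1 and Mgat4a. This measure also takes in assigned peaks up to 100 kb outside a gene, so it is not a count inside the gene. At Pip4k2a 6 of 10 and at Pag1 6 of 9 cKO-specific peaks were inside, against 12 of 12 at Sh3pxd2a.

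The coding genes most like Sh3pxd2a, by the sum of the differences in both counts, were Rad51b and Rapgef5 (3), Pag1 and Etv6 (4) and Pip4k2a (5, tied with Zfp217, Akap13, Bach2 and Med13l and placed by its cKO count). This likeness rests on 2 lists and says nothing of shared function. Peaks of each gene were counted by nearest end within 100 kb, so those deep inside a long gene such as Rad51b can be left out. Rapgef5, the gene of a Rap exchange factor, had 9 cKO-specific and 3 cWT-specific peaks, and Etv6, an ETS repressor gene, 8 cKO-specific and 3 cWT-specific. Of the peaks so counted, all 12 cKO-specific ones of Sh3pxd2a were inside the gene, as were 8 of 8 at Etv6 and 9 of 10 at Rad51b. The share was 6 of 9 at Rapgef5, 6 of 9 at Pag1 and 6 of 10 at Pip4k2a. Joining adjoining peaks took 3 from the cKO count of Sh3pxd2a, 1 from that of Etv6 and 0 from the other 4. The lowest cKO p-value of Sh3pxd2a, 0.306, was below those of the 5, which ran from 0.369 at Pag1 to 0.666 at Rad51b.

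**Figure D3:**
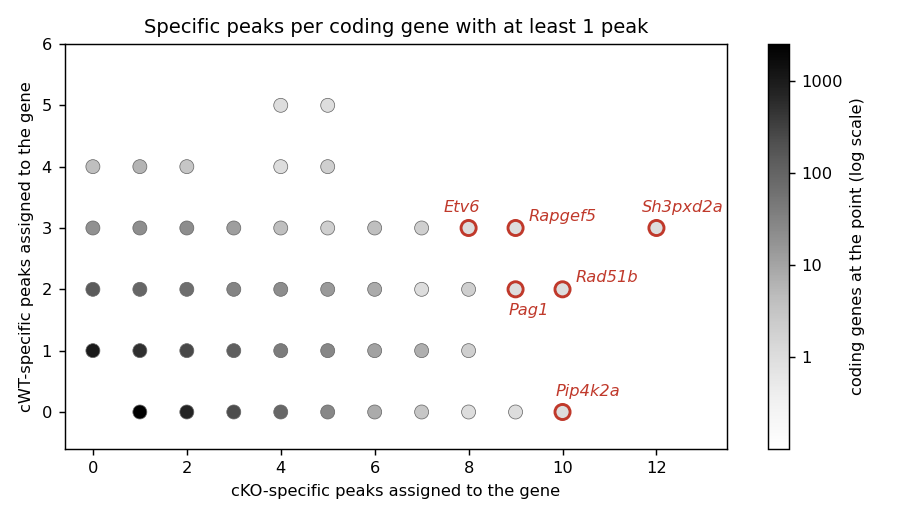
Specific peaks per coding gene. Each point is a pair of counts, cKO-specific on the x axis and cWT-specific on the y axis, for genes with at least 1 peak, shaded by the number of genes there on a log scale; red rings mark Sh3pxd2a and the 5 genes most like it. Sh3pxd2a, at 12 cKO-specific and 3 cWT-specific peaks, stands at the right edge, 2 cKO-specific peaks beyond Rad51b and Pip4k2a.

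Other genes of podosomes carried peaks in both lists. Of a list of 63 genes, 39 had a cKO-specific peak (61.9%, with 22.5% over all coding genes) and 23 a cWT-specific one (36.5%, with 11.4%), and the median count per gene was 1 in cKO and 0 in cWT. Without Sh3pxd2a it was 38 of 62 in cKO and 22 of 62 in cWT. These genes are long, with a median of 50.1 kb against 17.2 kb over all coding genes, and the part of length was not tested. Within 10 kb of a gene end the counts were 24 in cKO, where 14.2% of coding genes had a peak, and 11 in cWT, where 6.12% had one. The podosome list was chosen with earlier results of these data known, so its shares are given as description. In cKO the marker lists ranged from 2 of 9 lymphocyte genes to 6 of 10 vascular and 13 of 20 homeostatic microglia genes. Whether the share of the podosome list is particular to podosome genes was not tested.

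Sh3pxd2b, which encodes the related scaffold Tks4, had 1 peak in each list, both at its start on chromosome 11, unlike the peaks spread along Sh3pxd2a. The cKO-specific peak chr11:32347790-32347961 had a signal of 14.2 and a p-value of 0.985, and the cWT-specific peak chr11:32348103-32348345 a signal of 13.4 and a p-value of 0.969. The promoter sequence is shown because the cKO-specific peak lies over it (RefSeq, GRCm38.p6, chr11:32347590-32347889, forward strand), with the 100 bases under that peak in capitals.
Sh3pxd2b promoter: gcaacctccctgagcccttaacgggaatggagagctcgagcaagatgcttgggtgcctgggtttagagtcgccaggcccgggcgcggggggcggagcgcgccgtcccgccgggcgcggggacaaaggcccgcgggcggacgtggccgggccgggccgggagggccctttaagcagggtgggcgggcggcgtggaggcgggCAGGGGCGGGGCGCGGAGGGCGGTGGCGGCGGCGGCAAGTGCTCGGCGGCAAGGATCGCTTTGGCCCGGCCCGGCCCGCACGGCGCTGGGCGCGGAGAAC
Its GC content was 77.3%, against a median of 52.7% over 32851 promoter windows. Searched on both strands, it held 1 of 12 motifs, GGGGCGGG of SP and KLF factors, once, at bases 203 to 210 under the peak, and 16.5% of all windows hold these letters. Of those it did not hold, the AP-1 motif TGANTCA was found in 7.81% of all windows, the PU.1 motif GAGGAAGT in 3.2%, the ETS motif CCGGAA in 14.9% and the RUNX motif TGTGGTT in 5.27%. The IRF motif GAAANNGAA was found in 8.56%, the MEF2 motif CTAAAAATA in 0.517%, the CREB motif TGACGTCA in 1.79% and the CEBP motif TTGCGCAA in 0.183%. The CCAAT box was found in 37.4% of windows, the TATA box motif TATAAA in 13.6% and the E-box motif CACGTG in 7.15%. The windows of Gm52384, Gm36885 and Gm29834 inside Sh3pxd2a held 0 of the 12. A match of letters is not a bound site, and its absence says only that these letters are not in the window. Over all windows 2.18% were overlapped by a cKO-specific and 1.07% by a cWT-specific peak. Of the podosome genes, 46 had a window in the table, 58 windows in all. In cKO 7 of 58 (12.1%) were overlapped, those of Abl1 and Grb2 (2 windows each under 1 peak), Fscn1, Itgam and Sh3pxd2b, and in cWT 1 of 58 (1.72%), that of Cdc42. The oxidase genes Ncf1, Ncf4 and Noxo1, listed with Sh3pxd2a and Sh3pxd2b as a related family, had 0 peaks in both lists.

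Of 13 kinase and phosphatase genes, 10 had a cKO-specific peak (76.9%, with 22.5% over all coding genes) and 6 a cWT-specific one (46.2%, with 11.4%). The part of gene length in the shares of this and the following groups was not tested. Src, the kinase that phosphorylates Tks5, had 1 peak in each list. Lyn, a Src-family kinase of myeloid cells, had 3 cKO-specific and 2 cWT-specific peaks, and its relative Fyn 2 cKO-specific and 1 cWT-specific. Syk, which acts below integrins and Fc receptors, had 3 cKO-specific and 1 cWT-specific. The lowest of the authors' p-values over its peaks of both lists was 0.0184. Inpp5d, the gene of the lipid phosphatase SHIP1, had 5 cKO-specific and 0 cWT-specific peaks.

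Cdc42, which drives actin nucleation, and Rac2, the Rac protein of blood cells, had 2 cKO-specific and 1 cWT-specific each. The scaffold gene Iqgap1 had 3 cKO-specific and 0 cWT-specific peaks. Vav1 and Swap70 were the members with more cWT-specific than cKO-specific peaks among those named here. Vav1, an exchange factor gene, had 1 cKO-specific and 2 cWT-specific, and Swap70, an actin-binding exchange factor gene, 1 cKO-specific and 3 cWT-specific.

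Of 13 ring and adhesion genes, 10 had a cKO-specific peak (76.9%, with 22.5% over all coding genes) and 6 a cWT-specific one (46.2%, with 11.4%). Itgam, the gene of CD11b, had 5 cKO-specific and 1 cWT-specific peaks and its partner Itgb2 3 cKO-specific and 0 cWT-specific. Among other integrin genes, Itgav had 4 cKO-specific and 0 cWT-specific and Itgb3 3 cKO-specific and 2 cWT-specific peaks. Tln1, the gene of the integrin activator talin, Lpxn, a paxillin relative, and the actin crosslinker gene Actn1 had 2 cKO-specific and 1 cWT-specific each. Of 18 actin core genes, 8 had a cKO-specific peak (44.4%, with 22.5% over all coding genes) and 4 a cWT-specific one (22.2%, with 11.4%). Wipf1, which encodes the WASP-interacting protein, had 2 cKO-specific and 1 cWT-specific, and Cttn, the gene of cortactin, 0 in both lists. Of 6 protease genes, 2 had a cKO-specific peak (33.3%, with 22.5% over all coding genes) and 1 a cWT-specific one (16.7%, with 11.4%). Adam12 and Mmp14, whose products act at podosomes and invadopodia, had 0 peaks in both lists. No gene of the list besides Sh3pxd2a had more than 5 cKO-specific or 3 cWT-specific peaks.

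**Figure D4:**
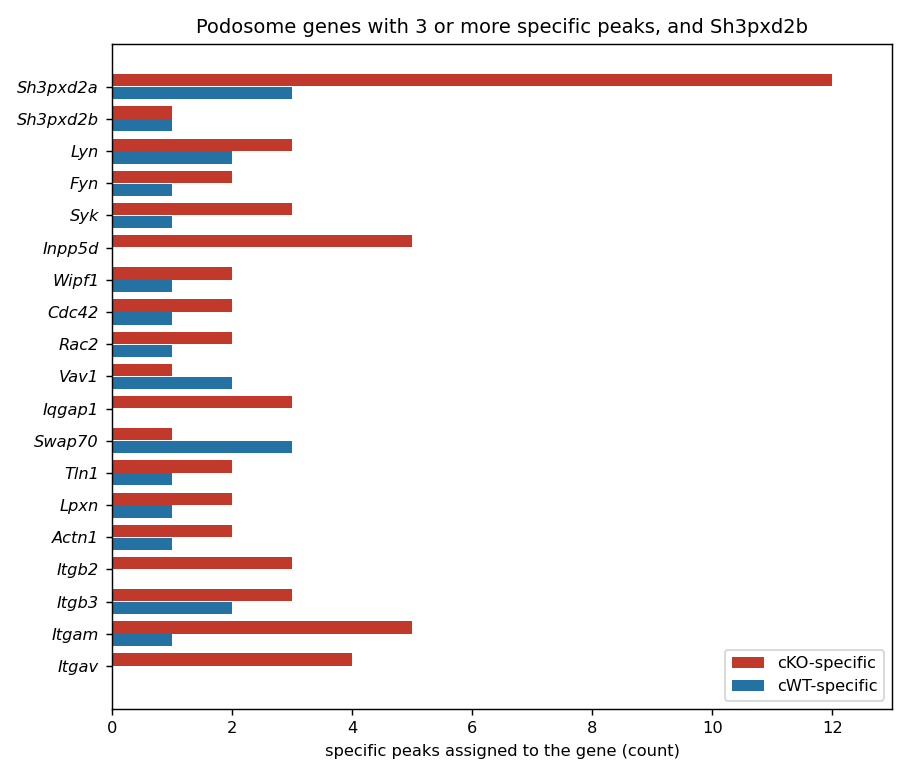
Specific peaks assigned to genes of the podosome list with 3 or more peaks in both lists together, and to Sh3pxd2b. For each gene the upper bar is the count of cKO-specific and the lower bar that of cWT-specific peaks. Sh3pxd2a has 12 cKO-specific and 3 cWT-specific peaks, and the next highest cKO counts are 5, at Inpp5d and Itgam.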

How the data were processed

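In all, 6 ATAC-seq libraries, 3 cKO and 3 cWT, were grouped by their titles. The deposited data used are 2 headerless peak lists, 1 per genotype. Tools named in the submitters' processing notes are HOMER 4.11, MACS2 2.2.7.1 and Bowtie2 2.4.4, with builds GRCm38 and mm10. The role of each tool, a shift of reads for Tn5, the combining of replicates and the rule for a specific peak were not given in the sources used here. The authors deposited a signal of unstated scale, a p-value, an adjusted p-value and a score per peak; the score equals -125 times log2 of the p-value, rounded down, for each of the 8615 peaks of cKO and 3490 of cWT.

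Midpoints were assigned to the nearest coding gene end of a RefSeq table of GRCm38.p6, without strand or exons, so exon, intron and UTR are not given. Adjoining peaks were joined at 0 bp. Shares "at or below" are percentages of a genotype's own list. Tks5, podosome and marker lists and the members were chosen with earlier results of these data known. Named genes are Sh3pxd2a, its neighbours with the next peaks, Sh3pxd2b, podosome genes with 3 or more peaks, and the 5 genes most like it; Stn1, Slk, Src, Cttn, Adam12, Mmp14, the genes above it in density and the promoter overlaps were chosen after their values were seen. For 1 group of the podosome list no group count is reported here. Assignment and joining were tested on simulated data. Python 3.11.15, numpy 2.4.6, pandas 2.3.3 and matplotlib 3.10.9 were used.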

Additional observations from a re-analysis of the deposited data

How the results depend on the processing

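The cKO-specific count of 12 at Sh3pxd2a and the cWT-specific count of 3 depended on filters on the authors' values and on the rule of assignment. With p-values up to 0.5 there was 1 peak in each list. With scores at or above the list's median there were 5 cKO-specific and 2 cWT-specific peaks. With ends of all annotated genes there were 1 cKO-specific and 2 cWT-specific, since noncoding genes inside Sh3pxd2a take the others. Joining adjoining peaks, or those within 500 bp, gave 9 cKO-specific and 3 cWT-specific, and midpoints inside the gene 12 cKO-specific and 2 cWT-specific; a limit of 10 kb, and the nearest end alone, changed neither count. The median signal of cKO-specific peaks, 15.55, was 22.85 at scores at or above the median and 11.63 after joining; their median width, 246.5 bp, was 434 bp under both. Podosome genes with a peak numbered 39 in cKO and 23 in cWT, 24 in cKO and 11 in cWT within 10 kb, and 9 in cKO and 3 in cWT at p-values up to 0.5, where 4.18% of coding genes in cKO and 0.886% in cWT had one; joining changed neither count. No paired analysis was possible because the lists hold no value per library; for the same reason no replicate could be left out, and what depth limits is unknown.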
